A study of Mus musculus with 8 samples.

Results

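Amino acid transporter genes were taken as every named gene whose symbol on the array begins with Slc1a, Slc3a, Slc6a, Slc7a, Slc36a, Slc38a or Slc43a, which gave 56 of the 18069 named genes on the array. Of the 56 genes, 55 encode proteins and 1, Slc6a19os, is a non-coding transcript of the opposite strand of Slc6a19 and encodes no carrier. Each gene was read from its brightest probe, and 13 further probes of 9 of the genes were read beside them. RNA came from the ovaries of 4 pioglitazone-treated and 4 vehicle-treated (control) female LY mice, with 1 CodeLink array per mouse and no pooling. All of these mice were heterozygous for the lethal yellow allele on a C57BL/6J background (Ay/a), in which the agouti gene is active in most tissues and obesity and insulin resistance follow as the animals age. Gavage began at 120 days of age and continued daily for 60 days, until 180 days, with pioglitazone in DMSO or with DMSO alone. Per the series description each mouse received 0.1 mg of pioglitazone a day, while the paper's methods state a lower dose. Pioglitazone is a thiazolidinedione, an insulin-sensitizing drug that binds the nuclear receptor PPARγ. Whether any of these genes differed between the treated and the control ovaries is the question of the comparison. Untreated lean mice were not analysed here.

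Amino acids cross the cell membrane through carriers that couple them to sodium or protons, exchange them for other amino acids, or let them pass down their gradient. Several of the Slc7 carriers are light chains that reach the membrane only when bound to a heavy chain, Slc3a1 or Slc3a2. The Slc6 family also holds the carriers of GABA, taurine, creatine and the monoamines. In the ovarian follicle the oocyte receives part of its amino acids from the surrounding cumulus cells through gap junctions, and takes up glycine itself to set its volume. Carriers on the lysosome, Slc38a9 among them, take part in the sensing of amino acids by the kinase complex mTORC1.

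Values are linear intensities relative to the array median, here called relative intensity units, and 0.2 is the limit of sensitivity given in the methods. All 8 arrays correlated with each other at 0.949 to 0.987 across probes on the log2 scale. The limma test covered 16073 named genes, and 779 of them (4.85%) had an unadjusted p under 0.05, which is what called means below. Of these genes 253 were higher and 526 lower with pioglitazone, and the split was 315 and 336 with quantile normalization and 327 and 337 with cyclic loess normalization. After adjustment over 30634 probes 0 genes stayed under 0.05, where limma's smallest adjusted p was 0.599. Arrays with the same replicate number in the 2 groups correlated above 0.1 after removal of group means, and the numbers were also used as pairs. Some differently numbered arrays correlated above 0.1 as well, up to 0.369 for pioglitazone mouse 3 with vehicle mouse 2. The sample titles state no pairing, so calls with the block depend on a pairing chosen from these data. With the pair as a block 1289 genes (8.02%) were called, again with 0 at an adjusted p of 0.05. Marker genes of the ovary were measured, including 8 of 8 oocyte markers and 8 of 9 granulosa markers tested. Pioglitazone mouse 1 had the highest sum of the 7 adipocyte markers, at 126 relative intensity units, against 15.7 to 36.7 in the other pioglitazone-treated mice and 26.5 to 67.9 in vehicle-treated mice. In bulk ovary fewer cells of a type and less RNA per cell cannot be told apart.

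Of the 56 genes, 50 were tested, those whose mean reached 0.2 in 1 group or both. Slc6a13, Slc6a14, Slc6a17 and Slc6a19os were under 0.2 in all 8 mice, and Slc7a12 and Slc36a3 had a mean under 0.2 in both groups. In 45 genes every mouse was at or above 0.2. With pioglitazone 22 of the tested genes had a positive and 28 a negative log2 fold change, a median of -0.03 against -0.04 over all named genes tested. The log2 fold changes lay between -0.60 and 0.81, and 40 of the 50 were within 0.3 of 0, with standard errors between 0.12 and 0.46. A size over 0.5 was seen in 5 of the 50, and in 5.52% of all named genes tested. Slc6a15 was the 1 gene called, and it was higher, where 1.57% of all named genes were called higher and 3.27% lower. With 1 array left out the number called was 1 to 3, with 3 both without pioglitazone mouse 3 and without vehicle mouse 4, and 2 without pioglitazone mouse 2. With the pair as a block 5 genes were called (background 8.02%), Slc6a15 and Slc38a6 as higher (background 2.69%) and Slc1a4, Slc3a1 and Slc7a5 as lower (background 5.33%), where Slc3a1 was under 0.2 in all 4 treated mice. Slc7a5 was under 0.2 in 1 treated mouse. None of the 5 stayed under 0.05 after adjustment. In 3 of the 50 genes, Slc6a15, Slc43a1 and Slc38a10, the groups did not overlap, as in 4.18% of all named genes. The test named in the methods called 4 (background 6.45%), of which Slc6a15 and Slc6a3 were higher and Slc43a1 and Slc38a10 lower.

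**Figure D1:**
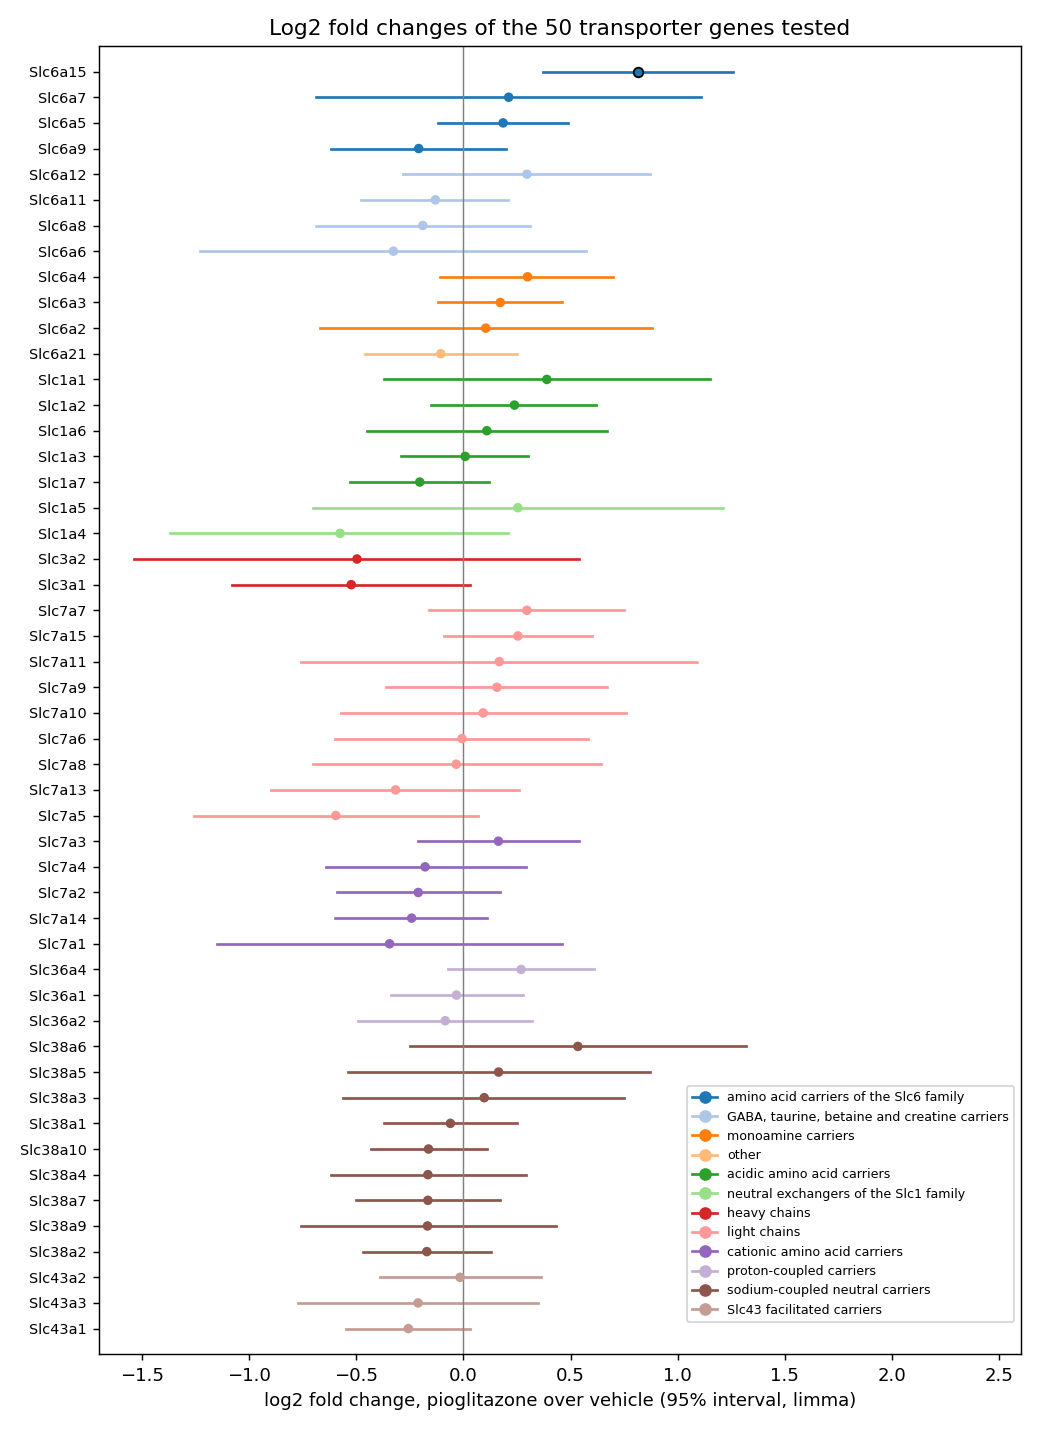
Log2 fold changes of pioglitazone-treated over vehicle-treated mice (horizontal axis) for the 50 genes tested, with 95% intervals from limma, coloured by the role of the carrier. Slc6a15, outlined in black, is the gene called at 0.81, and the intervals of the other 49 genes hold 0.

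Promoter windows are shown for 3 of the genes. Slc43a1 is shown because its treated mice lay below its control mice. Slc1a4 and Slc7a11 are 2 of the 4 genes that hold the core sequence described below. The other 2, Slc6a21 and Slc7a7, are not shown. RefSeq sequences of build GRCm38.p6 from 250 bases before to 50 bases after a gene start were found for 40 of the 56 genes, 61 windows in all. Slc6a15 and Slc7a5 are among the genes without a window, so nothing below covers them. The core TGATGNAA, which proteins of the CEBP and ATF families bind in genes of the amino acid response, was searched on both strands. It was found in 5 of these windows, in the 4 genes Slc7a11, Slc6a21, Slc1a4 and Slc7a7, and in 3.97% of 32851 windows of the same length over all genes. The 2 Slc7a7 windows overlap and share 1 site, which is counted in both. The PPAR and RXR element, 2 copies of AGGTCA in the same direction with 1 base between them, was searched in the same way and found in 0 of the 61 windows and in 0.0396% of all windows. That is 13 of the 32851 windows, so rare that 0 of 61 says nothing particular about these genes. Capitals mark the matches, which are descriptions of sequence and not sites of binding. The Slc43a1 window lies at chr2:84840073-84840372 on the plus strand, that of Slc1a4 at chr11:20332664-20332963 on the minus strand and that of Slc7a11 at chr3:50443564-50443863 on the minus strand, each written 5′ to 3′ along the gene.
Slc43a1: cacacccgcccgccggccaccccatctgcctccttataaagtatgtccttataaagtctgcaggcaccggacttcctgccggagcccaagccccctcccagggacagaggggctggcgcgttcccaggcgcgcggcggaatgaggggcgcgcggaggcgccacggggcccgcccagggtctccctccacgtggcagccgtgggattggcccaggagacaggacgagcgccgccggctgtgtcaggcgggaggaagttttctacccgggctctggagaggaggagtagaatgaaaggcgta
Slc1a4: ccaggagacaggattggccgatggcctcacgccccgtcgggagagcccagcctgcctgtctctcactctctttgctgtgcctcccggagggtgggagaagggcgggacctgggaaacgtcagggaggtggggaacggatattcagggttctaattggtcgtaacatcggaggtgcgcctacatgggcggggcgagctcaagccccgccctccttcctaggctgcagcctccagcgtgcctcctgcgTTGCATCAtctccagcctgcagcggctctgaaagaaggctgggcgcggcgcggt
Slc7a11: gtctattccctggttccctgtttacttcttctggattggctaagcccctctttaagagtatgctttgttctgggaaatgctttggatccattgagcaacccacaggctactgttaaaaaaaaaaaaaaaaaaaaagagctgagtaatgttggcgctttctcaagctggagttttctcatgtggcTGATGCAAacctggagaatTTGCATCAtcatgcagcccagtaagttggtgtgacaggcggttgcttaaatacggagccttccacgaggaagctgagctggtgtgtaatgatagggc
Slc7a11 has 2 matches and Slc1a4 has 1, and their log2 fold changes were 0.17 and -0.58, neither called in limma without the block. Slc43a1, with no match to either motif, was at -0.26.

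Slc6a15 encodes a sodium-coupled carrier of branched-chain amino acids and proline that is best known from neurons of the brain. Pioglitazone-treated mice 1 to 4 had 4.74, 6.32, 5.65 and 7.21 relative intensity units, against 3.01, 3.76, 2.66 and 4.25 in vehicle-treated mice 1 to 4. The lowest treated mouse lay above the highest control mouse. Means were 5.98 ± 1.04 with pioglitazone and 3.42 ± 0.72 with vehicle (SD, n = 4 each), which is 1.75-fold. The log2 fold change was 0.81 with a standard error of 0.20 and a 95% interval of 0.37 to 1.26 in limma. Its p was 0.0024 in limma without and 0.837 with adjustment over all probes, and the 2-sided exact permutation p was 0.0286, the smallest that 4 against 4 mice allow. Groups lying apart in this direction were found in 1.14% of all named genes. Within the 4 pairs the log2 ratios were 0.65, 0.75, 1.09 and 0.76, all positive as any pairing must give where the groups lie apart. Slc6a15 was also called with the pair as a block (adjusted p 0.575 in limma). With any 1 mouse left out the log2 fold change stayed between 0.70 and 0.93 and was called. Only 1 probe of Slc6a15 is named on the array.

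The order of the treated mice in Slc6a15 was shared in part by the granulosa markers. Their summed level was 106, 176, 99.0 and 176 relative intensity units in pioglitazone-treated mice 1 to 4 and 101, 90.6, 101 and 119 in vehicle-treated mice 1 to 4. Treated mice 2 and 4 and control mouse 4 were thus highest in both measures, while control mouse 2, second of its group in Slc6a15 (3.76), was lowest in the sum. Inha, Inhba, Hsd17b1, Fst and Fshr were highest in treated mice 2 and 4, and Foxl2, Nr5a2 and Amh were not. Foxl2 was lowest of the treated mice in mouse 4 (7.74). All 8 granulosa markers tested had positive log2 fold changes (median 0.32), and 1, Fst, which encodes follistatin, was called, where 1.57% of all named genes were called higher. Smooth muscle markers had positive values in 5 of 5 (median 0.38), with 2 called (same background of 1.57%), and their sums were 235 to 285 with pioglitazone and 204 to 240 with vehicle. The 4 neuron markers were summed at 5.75 to 6.45 in treated and 6.20 to 6.76 in control mice, with a median log2 fold change of -0.10. The part of these cell types in the level of Slc6a15 was not tested.

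**Figure D2:**
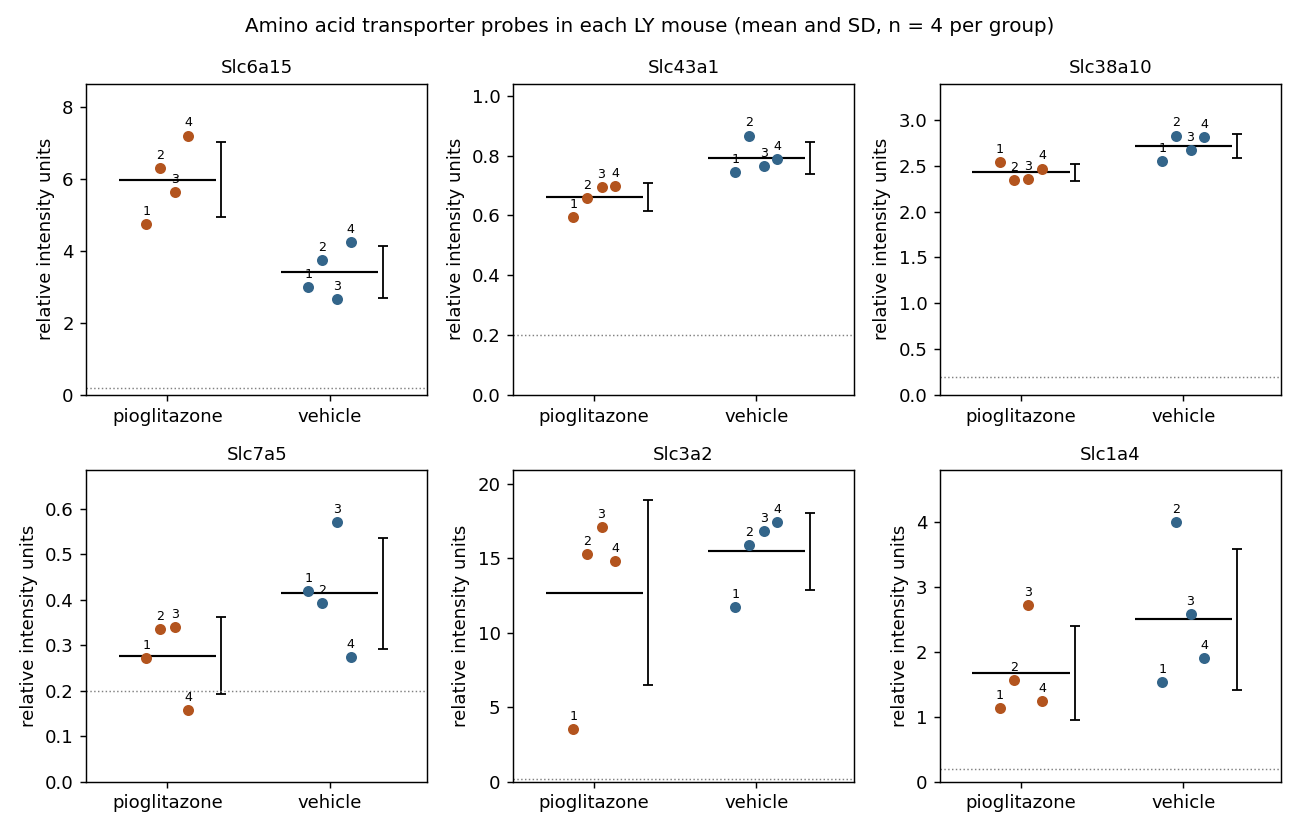
Relative intensity units of Slc6a15, Slc43a1, Slc38a10, Slc7a5, Slc3a2 and Slc1a4 in each pioglitazone-treated (left) and vehicle-treated (right) LY mouse. Points carry the mouse number, horizontal lines are means, bars to their right are SD (n = 4 each), and dots mark the limit of 0.2. The groups lie apart in Slc6a15, Slc43a1 and Slc38a10, and pioglitazone mouse 1 is at 3.52 in Slc3a2.

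The other amino acid carriers of the Slc6 family showed no such difference. Slc6a9, the glycine carrier that mouse oocytes and early embryos use for volume control, had 18.8, 13.7, 12.5 and 12.5 relative intensity units in pioglitazone-treated mice 1 to 4 and 19.1, 18.1, 13.8 and 15.1 in vehicle-treated mice 1 to 4. It was lower in 4 of 4 pairs, and the groups overlapped only through treated mouse 1 (log2 fold change -0.21, 95% interval -0.62 to 0.20). Being lower in 4 of 4 pairs was seen in 13.4% of all named genes and in 10 of the 50 transporter genes, and being higher in 4 of 4 in 6.69% of all named genes and in 7 of the 50. Slc6a5, the second glycine carrier, was at 0.444 to 0.541 in treated and 0.383 to 0.469 in control mice and higher in 4 of 4 pairs (log2 fold change 0.19, standard error 0.14). Slc6a7, a proline carrier of brain, ranged from 1.06 to 2.49 with pioglitazone and from 0.731 to 2.42 with vehicle, and its spread over mice was wider than its group difference (log2 fold change 0.21, standard error 0.40). Slc6a17, a carrier of synaptic vesicles, stayed under 0.2 in every mouse, as did Slc6a14, a broad carrier of neutral and cationic amino acids.

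In the 4 tested carriers of taurine, creatine, GABA and betaine the groups overlapped. Slc6a6, the taurine carrier, had 2.11, 4.49, 5.43 and 2.15 relative intensity units in pioglitazone-treated mice 1 to 4 and 2.54, 6.36, 5.48 and 3.10 in vehicle-treated mice 1 to 4. Mice 2 and 3 were high and mice 1 and 4 low in both groups, and each treated mouse lay below the control mouse of the same number. The log2 fold change was -0.33 (standard error 0.40, 2-sided exact permutation p = 0.514), and the gene was not called with the pair as a block. Slc6a8, the creatine carrier, had 2.11, 2.39, 3.04 and 2.19 in treated and 2.04, 2.95, 3.96 and 2.38 in control mice (log2 fold change -0.19, standard error 0.22). Among the GABA and betaine carriers, Slc6a12 averaged 0.394 ± 0.102 with pioglitazone and 0.323 ± 0.088 with vehicle, and Slc6a11 1.12 ± 0.11 and 1.23 ± 0.18 (SD, n = 4 each). Slc6a13 was under the limit in all mice, at 0.055 to 0.090 with pioglitazone and 0.092 to 0.179 with vehicle, so that no fold was given although the groups did not overlap.

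The monoamine carriers, which share the family but not the substrate, had positive log2 fold changes in 3 of 3 and were not called. Slc6a3, the dopamine carrier, had 3.52, 3.44, 3.53 and 3.84 relative intensity units with pioglitazone and 3.33, 2.96, 2.96 and 3.49 with vehicle. Its groups overlapped only through control mouse 4 (2-sided exact permutation p = 0.0571), with a log2 fold change of 0.17 (95% interval -0.12 to 0.46). Slc6a4, the serotonin carrier, was at 1.91 to 2.63 with pioglitazone and 1.33 to 2.02 with vehicle and was higher in 4 of 4 pairs (log2 fold change 0.30, standard error 0.18). The noradrenaline carrier Slc6a2 ranged from 0.221 to 0.480 in treated and from 0.160 to 0.461 in control mice. Slc6a21, a member of the family with no role given here, averaged 1.14 ± 0.17 and 1.22 ± 0.16 in treated and control mice.

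Acidic amino acids, glutamate and aspartate, are carried by 5 members of the Slc1 family, of which 4 had positive log2 fold changes and 0 were called. Slc1a1, the glutamate and cysteine carrier found in many epithelia and in neurons, had 0.933, 0.377, 0.435 and 0.838 relative intensity units in pioglitazone-treated mice 1 to 4, against 0.608, 0.400, 0.321 and 0.558 in vehicle-treated mice 1 to 4. Mice 1 and 4 were the highest of either group, and the log2 fold change of 0.39 had a standard error of 0.34 and was not called with the pair as a block. Slc1a3, the glutamate carrier of glia, was nearly even, at 1.72, 1.98, 2.04 and 1.87 with pioglitazone and 1.80, 1.81, 1.84 and 2.12 with vehicle. The log2 fold change of Slc1a3 was 0.01 with a 95% interval of -0.29 to 0.30. Slc1a2 lay at 0.263 to 0.360 in treated and 0.223 to 0.312 in control mice and Slc1a7 at 1.03 to 1.3 and 1.17 to 1.47. Slc1a6 averaged 0.664 ± 0.227 in treated and 0.592 ± 0.077 in control mice.

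The neutral exchangers of the Slc1 family carry alanine, serine, cysteine and, in the case of Slc1a5, glutamine. Slc1a4 had 1.14, 1.57, 2.73 and 1.25 relative intensity units in pioglitazone-treated mice 1 to 4 and 1.53, 4.00, 2.59 and 1.91 in vehicle-treated mice 1 to 4. Treated mouse 3 and control mouse 2 stood highest, and 3 of 4 pairs were lower. Means were 1.67 ± 0.73 and 2.51 ± 1.09 in treated and control mice (SD, n = 4 each), with a log2 fold change of -0.58 (standard error 0.35, 95% interval -1.37 to 0.21). It was called with the pair as a block (adjusted p 0.575 in limma), and not without the block. With 1 mouse left out its log2 fold change ran from -0.84 without treated mouse 3, which was called, to -0.32 without control mouse 2, which was not. Slc1a5 had 0.342, 0.458, 0.636 and 0.318 with pioglitazone and 0.140, 0.531, 0.517 and 0.407 with vehicle. Control mouse 1 was the only mouse under the limit, and the log2 fold change was 0.25 (standard error 0.42) with all mice and -0.19 without control mouse 1.

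Neither heavy chain was called without the block. Slc3a2, the heavy chain of CD98 that carries most of the exchangers of this family to the membrane, had 3.52, 15.3, 17.1 and 14.8 relative intensity units in pioglitazone-treated mice 1 to 4, against 11.7, 15.9, 16.8 and 17.4 in vehicle-treated mice 1 to 4. Treated mouse 1 lay far below the other 7 mice, which were at 11.7 or more. The log2 fold change was -0.50 (standard error 0.46) with all mice and 0.04 without pioglitazone mouse 1. In the same mouse the luteal marker sum was the lowest of all, at 133 against 239 to 330 in the other treated mice and 263 to 378 in control mice, and the adipocyte sum was the highest. The part of these in the low Slc3a2 value was not tested, and Slc3a2 has 1 named probe. Slc3a1, the heavy chain of the cystine carrier of kidney and gut, was under 0.2 in all 4 treated mice (0.122 to 0.169) and in 1 of 4 control mice (0.132 to 0.3). It was at least 1.12-fold lower with pioglitazone when the treated group is set to the limit. Its call with the pair as a block rests on values under the limit, and with all values under 0.2 raised to 0.2 the log2 fold change was -0.255 and not called without the block.

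Among 9 tested light chains, 5 had positive and 4 negative log2 fold changes and 0 were called without the block. Slc7a5, which brings large neutral amino acids such as leucine into the cell as the partner of Slc3a2, had 0.272, 0.336, 0.340 and 0.158 relative intensity units in pioglitazone-treated mice 1 to 4 and 0.419, 0.393, 0.570 and 0.274 in vehicle-treated mice 1 to 4. The 2 groups overlapped through control mouse 4, yet every treated mouse was below the control mouse of its number, with log2 ratios of -0.62, -0.23, -0.75 and -0.79. Means were 0.277 ± 0.085 and 0.414 ± 0.122 in treated and control mice (SD, n = 4 each), which is 0.668-fold. Treated mouse 4 (0.158) was under the limit of 0.2, so these means and the fold rest in part on a value under it. The log2 fold change was -0.60 with a 95% interval of -1.26 to 0.07, and the gene was called with the pair as a block (adjusted p 0.575 in limma). With 1 mouse left out and no block the log2 fold change ran from -0.78 without control mouse 4, which was called, to -0.35 without treated mouse 4, which was not.

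Slc7a11, the light chain of the cystine and glutamate exchanger that supplies cysteine for glutathione, had 4.84, 3.27, 3.42 and 2.83 relative intensity units with pioglitazone, against 4.89, 4.62, 1.23 and 3.47 with vehicle. Control mouse 3 was the lowest of all 8, and without it the log2 fold change was -0.28 against 0.17 (standard error 0.41) with all mice. Slc7a7, which exchanges cationic for neutral amino acids, had 2.94, 4.51, 4.25 and 4.15 in treated and 3.30, 3.61, 2.33 and 3.72 in control mice (log2 fold change 0.30, 95% interval -0.16 to 0.75). Slc7a6, with a similar exchange, averaged 10.1 ± 2.6 in treated and 10.2 ± 3.1 in control mice, and Slc7a8, a second carrier of neutral amino acids with Slc3a2, 0.402 ± 0.129 and 0.413 ± 0.123 (SD, n = 4 each). The level of Slc7a15 was 0.421 to 0.519 with pioglitazone and 0.335 to 0.454 with vehicle. Slc7a9, the partner of Slc3a1, lay at 0.403 to 0.832 and 0.435 to 0.587 in treated and control mice, and Slc7a10, a carrier of small neutral amino acids and D-serine, at 0.137 to 0.360 and 0.159 to 0.213. Slc7a12 was at 0.026 to 0.186 with pioglitazone and 0.116 to 0.257 with vehicle and was not tested.

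Slc7a13, a carrier of aspartate and glutamate known from the kidney, gave opposite results with its 2 probes. The brightest probe had 0.215, 0.283, 0.385 and 0.329 relative intensity units in pioglitazone-treated mice 1 to 4 and 0.245, 0.468, 0.473 and 0.341 in vehicle-treated mice 1 to 4, with a log2 fold change of -0.32 (standard error 0.26). In the second probe, chosen for mention after its values were seen, treated mice had 0.417, 0.347, 0.354 and 0.292 and control mice 0.176, 0.215, 0.222 and 0.218. The groups of this probe lay apart, with a log2 fold change of 0.76 (standard error 0.16, called, adjusted p 0.837 in limma) that stayed between 0.67 and 0.85 with any 1 mouse left out. Both probes carry the same accession in the platform annotation and both lie near the limit, and which of them reports the transcript was not tested. Slc38a6, a less studied member of the sodium-coupled family, had its 2 probes in the same direction. Its brightest probe had 17.9, 12.9, 11.5 and 15.1 in treated and 14.9, 10.1, 4.56 and 13.2 in control mice and was higher in 4 of 4 pairs (log2 fold change 0.53, standard error 0.35, called only with the pair as a block, adjusted p 0.575 in limma). Without control mouse 3 this value was 0.17. The second Slc38a6 probe was at 0.510 to 0.865 in treated and 0.510 to 0.660 in control mice, with a log2 fold change of 0.38 (standard error 0.20).

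**Figure D3:**
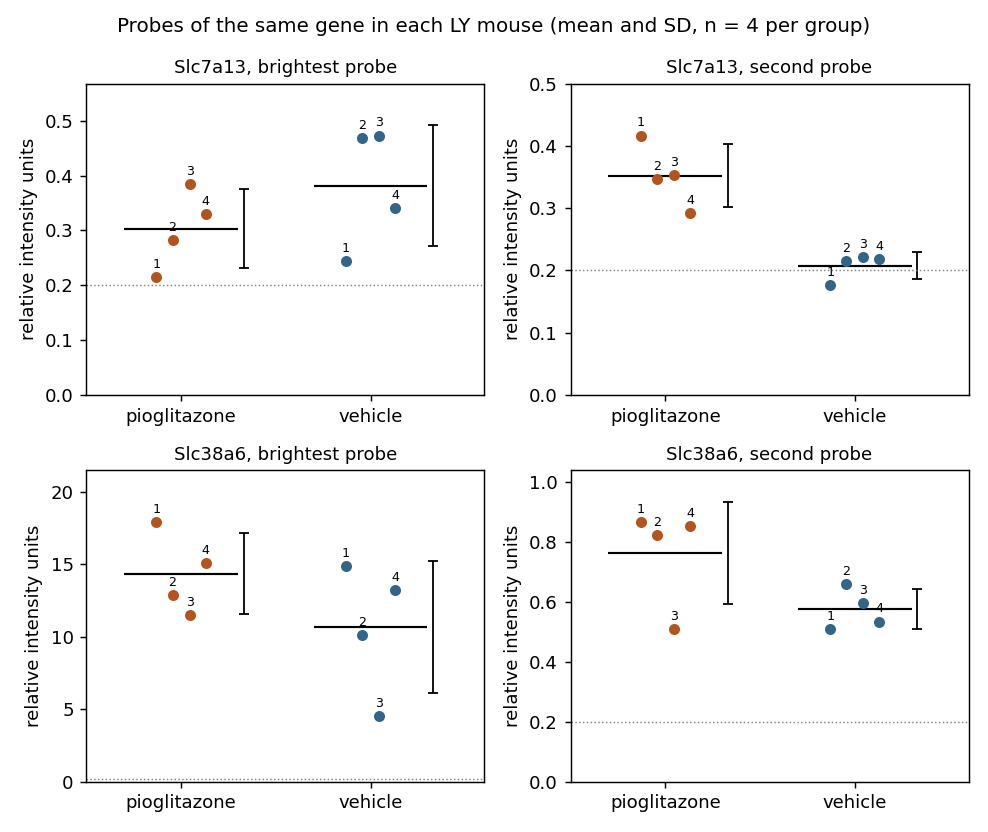
Relative intensity units of the brightest and the second probe of Slc7a13 (top) and Slc38a6 (bottom) in each pioglitazone-treated (left) and vehicle-treated (right) LY mouse, with means, SD (n = 4 each) and the limit of 0.2 as a dotted line. The second Slc7a13 probe is higher in treated mice (0.292 to 0.417 against 0.176 to 0.222), whereas its brightest probe overlaps.

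Across the 9 genes with further probes, 9 of the 13 further probes were tested and 1, that of Slc7a13, was called without the block. Slc38a2 also had probes of opposite sign, with log2 fold changes of -0.17 (standard error 0.13) and 0.185 (standard error 0.23). A further Slc43a2 probe had 1.81, 2.45, 2.75 and 2.22 relative intensity units in treated and 2.41, 3.10, 3.82 and 2.58 in control mice, lower in 4 of 4 pairs (called only with the pair as a block). The brightest Slc43a2 probe averaged 4.83 ± 0.45 and 4.93 ± 0.83 in treated and control mice. The further Slc36a1 probe had a value in 2 of the 8 mice and was not used.

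Of the cationic amino acid carriers, 1 had a positive and 4 a negative log2 fold change, and 0 were called. Slc7a1, the widely expressed carrier of arginine and lysine, had 13.8, 8.46, 10.5 and 7.62 relative intensity units with pioglitazone and 23.5, 14.3, 6.81 and 10.6 with vehicle. Control mouse 1 was the highest and control mouse 3 the lowest of all 8, and the log2 fold change was -0.345 (95% interval -1.15 to 0.46). Of the 3 further Slc7a1 probes, 2 were tested, with log2 fold changes of 0.30 and -0.27 in limma. Slc7a2, the inducible arginine carrier of macrophages and liver, had 0.573, 0.531, 0.665 and 0.441 in treated and 0.534, 0.632, 0.734 and 0.646 in control mice (log2 fold change -0.21, standard error 0.17). Of the 3 macrophage markers tested, C1qa was at a log2 fold change of -0.38, Adgre1 at -0.36 and Mrc1 at -0.02. None of these was called without the block. Adgre1 was under 0.2 in 3 treated mice, and the Mrc1 mean was higher with pioglitazone (1.45 against 1.22). The marker sum, mostly C1qa, was 10.6 to 14.9 with pioglitazone and 13.9 to 18.8 with vehicle, and the part of macrophages was not tested. Slc7a3 lay at 0.356 to 0.502 in treated and 0.302 to 0.417 in control mice, Slc7a4 at 1.76 to 2.79 and 2.03 to 3.13, and Slc7a14 at 0.907 to 1.25 and 1.15 to 1.5.

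The sodium-coupled neutral carriers of the Slc38 family had 3 positive and 6 negative log2 fold changes, none of them called. Slc38a10 separated the groups by a small margin, with 2.54, 2.34, 2.36 and 2.47 relative intensity units in pioglitazone-treated mice 1 to 4 against 2.55, 2.83, 2.67 and 2.81 in vehicle-treated mice 1 to 4. Its log2 fold change was -0.16 (standard error 0.12, 2-sided exact permutation p = 0.0286), and all treated mice below all control mice was seen in 3.04% of named genes and in 2 of the 50 transporter genes. Slc38a2, the amino acid-regulated carrier of the system A type, had 43.8, 41.5, 44.5 and 36.3 in treated and 44.7, 50, 48.3 and 43.7 in control mice, lower in 4 of 4 pairs (2-sided exact permutation p = 0.0857, log2 fold change -0.17). Slc38a1, of the same type, had 0.434, 0.518, 0.488 and 0.460 with pioglitazone and 0.493, 0.467, 0.571 and 0.455 with vehicle, with a 95% interval of -0.37 to 0.25 for its log2 fold change.

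Slc38a3, through which mouse cumulus cells take up alanine and histidine for the oocyte, had 2.15, 2.06, 1.09 and 2.02 relative intensity units in pioglitazone-treated mice 1 to 4 and 1.89, 1.3, 1.22 and 2.46 in vehicle-treated mice 1 to 4. Treated mouse 3 and control mice 2 and 3 were low, and the log2 fold change of 0.10 had a standard error of 0.29. Slc38a5, a glutamine carrier of the same system N, ranged from 9.49 to 28.4 in treated and from 14.5 to 19.8 in control mice. Slc38a9, the arginine-sensing carrier of the lysosome, had 19.9, 11, 10.7 and 18.4 with pioglitazone and 22.8, 12.8, 14.5 and 16.2 with vehicle, a log2 fold change of -0.17 (standard error 0.27), and its second probe was at 0.06. Slc38a7, which exports glutamine from the lysosome, was at 4.17 to 5.62 in treated and 4.64 to 5.92 in control mice and lower in 4 of 4 pairs, while its second probe, of the same accession, was lower in 3 of 4 pairs with a log2 fold change of -0.02. Slc38a4 averaged 0.387 ± 0.094 and 0.430 ± 0.073 in treated and control mice.

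Facilitated carriers of the Slc43 family and carriers of the Slc36 family completed the set. Slc43a1, which carries branched-chain amino acids and phenylalanine without sodium, had 0.596, 0.659, 0.696 and 0.698 relative intensity units in pioglitazone-treated mice 1 to 4, against 0.746, 0.867, 0.765 and 0.787 in vehicle-treated mice 1 to 4. All treated mice were below all control mice. Means were 0.662 ± 0.048 and 0.791 ± 0.053 in treated and control mice (SD, n = 4 each), with a log2 fold change of -0.26 (95% interval -0.55 to 0.03). Its 2-sided exact permutation p was 0.0286, which is fixed once 4 against 4 mice lie apart (background 3.04% in this direction). Slc43a1 was not called in limma with or without the block (p 0.0749 and adjusted p 0.837 in limma without it). The test named in the methods called it (adjusted p 0.698). Slc43a3, a carrier of purine bases, had 0.869, 1.18, 1.42 and 1.04 in treated and 0.908, 1.70, 1.67 and 1.06 in control mice, lower in 4 of 4 pairs (log2 fold change -0.21, standard error 0.25). Slc36a4, a carrier of proline and tryptophan, was at 0.778 to 1.08 with pioglitazone and 0.693 to 0.844 with vehicle (log2 fold change 0.27, standard error 0.15). Slc36a1 averaged 0.798 ± 0.032 and 0.820 ± 0.104, and Slc36a2 1.01 ± 0.14 and 1.08 ± 0.21, in treated and control mice. Slc36a3 ranged from 0.0485 to 0.273 in treated and from 0.077 to 0.275 in control mice.

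Variation between mice of the same group was larger than the group difference for many carriers, and part of it followed the mouse number. In 7 of the 50 genes the highest 2 mice of either group were mice 2 and 3, as in 7.72% of all named genes, and these were Slc1a4, Slc1a5, Slc36a2, Slc3a1, Slc43a3, Slc6a6 and Slc6a8. In another 7 they were mice 1 and 4, as in 9.86% of all named genes, and these were Slc1a1, Slc36a4, Slc38a5, Slc38a6, Slc38a9, Slc6a4 and Slc6a7. Summed markers of some cell types had one of these orders, while others, the granulosa and neuron sums among them, had neither. The luteal sum was 133, 251, 330 and 239 relative intensity units in pioglitazone-treated mice 1 to 4 and 277, 378, 372 and 263 in vehicle-treated mice 1 to 4, highest in mice 2 and 3 of either group. Hsd3b1, the largest part of this sum, was instead highest in treated mice 3 and 4 (215 and 203), and Scarb1 in control mice 3 and 4 (7.29 and 7.49). The smooth muscle sum, at 255, 274, 285 and 235 in treated and 221, 240, 226 and 204 in control mice, was also highest in mice 2 and 3. Of its markers Des had this order in both groups, and Acta2, Myh11, Cnn1 and Tagln did not. All 6 luteal markers tested had negative log2 fold changes (median -0.78), with 0 called and 4 called as lower with the pair as a block (background 5.33%). The oocyte sum was 111, 80.9, 64.5 and 87.1 in treated and 91.7, 69.4, 64.7 and 96.4 in control mice, highest in mice 1 and 4 of either group. Zp1, Zp2 and Zp3 had this order, and the other oocyte markers did not, with Bmp15 highest in treated mice 2 and 3 (2.51 and 2.05). Theca cells were read from Cyp17a1 alone, at 228, 75.6, 9.07 and 77.9 in treated and 297, 17.7, 7.17 and 170 in control mice, also highest in mice 1 and 4. The part of luteal tissue, smooth muscle or cycle stage in the carrier levels was not tested.

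**Figure D4:**
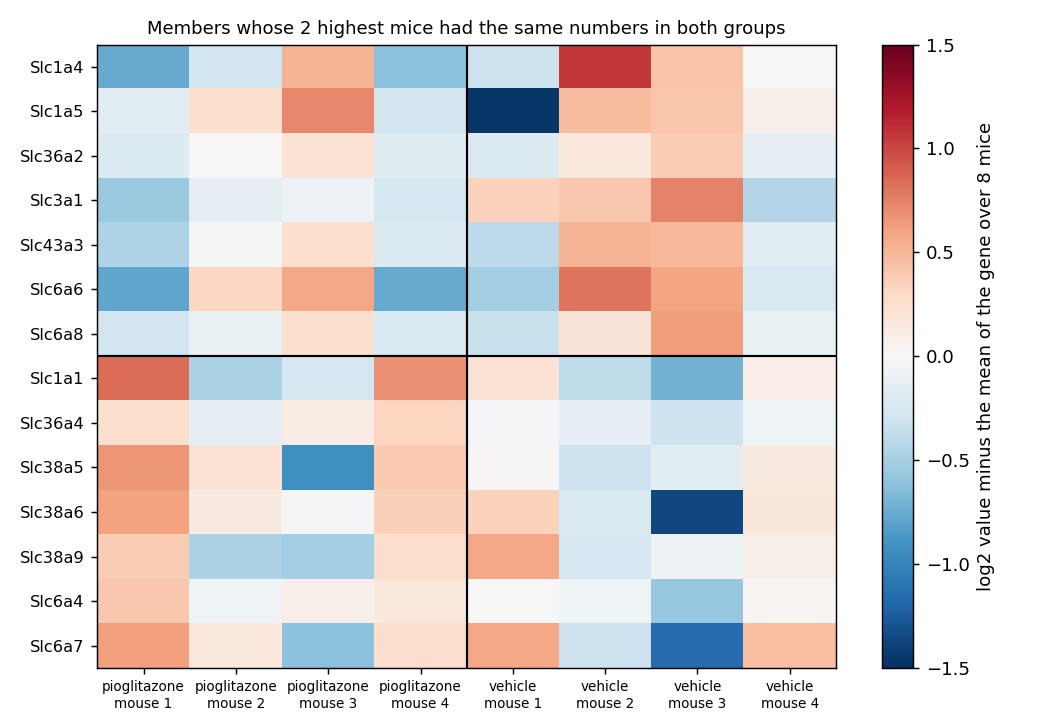
Log2 values minus the mean of each gene over 8 mice (colour scale) for the 7 genes highest in mice 2 and 3 of both groups (above the horizontal line) and the 7 highest in mice 1 and 4 (below it), with pioglitazone-treated mice left of the vertical line and vehicle-treated mice right of it. Slc6a6 is at 4.49 and 5.43 in treated mice 2 and 3, and at 2.11 and 2.15 in treated mice 1 and 4.

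When amino acids run short, the kinase Eif2ak4 and the transcription factor ATF4 raise a set of genes for their synthesis, charging and transport, which is known to include Slc7a11, Slc1a4, Slc7a5 and Slc3a2. Of 27 tested genes of this amino acid response, 4 had positive and 23 negative log2 fold changes, where 43.4% of all named genes were positive. Their median was -0.15 against -0.04 over all named genes. Signs and medians of this and the other lists were taken with the main scaling only. The median over all probes, -0.034 with that scaling, was -0.002 with quantile and -0.001 with cyclic loess normalization. Called were 0 as higher and 2 as lower (7.41%, background 4.85%). Psat1, an enzyme of serine synthesis, had 10.4, 8.52, 9.01 and 7.26 relative intensity units with pioglitazone and 12.9, 15.9, 14.3 and 10.2 with vehicle, a log2 fold change of -0.59 (standard error 0.18, adjusted p 0.837 in limma). The treated mice overlapped the control mice only through treated mouse 1 and control mouse 4, and the 2-sided exact permutation p was 0.0571. Phgdh, the first enzyme of the same pathway, had 2.24, 2.00, 2.19 and 2.09 in treated and 2.34, 5.58, 3.29 and 2.25 in control mice, with groups that lay narrowly apart (background 3.04%, log2 fold change -0.56, standard error 0.27, not called). Its mean over all Phgdh probes gave 0.07. Psph, the last enzyme, averaged 6.35 ± 0.91 and 8.45 ± 2.16 in treated and control mice and was not called.

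Cebpg, a partner of ATF4, was called at 2.50, 2.81, 2.26 and 2.55 relative intensity units in pioglitazone-treated mice 1 to 4, against 3.68, 4.11, 5.10 and 2.55 in vehicle-treated mice 1 to 4 (log2 fold change -0.57, standard error 0.21, adjusted p 0.837 in limma). Atf4 itself averaged 108 and 119 and Asns, asparagine synthetase, 8.10 and 10.2 in treated and control mice, neither called. The number of response genes called ran from 1 to 5 with 1 mouse left out. It was 5 without control mouse 4 and 1 without treated mouse 3, control mouse 2 or control mouse 3. In the list of amino acid sensing by mTORC1, 14 of 32 tested genes were positive and 18 negative, with a median of -0.04 and 1 called (3.12%, background 4.85%). The gene called was Lars, the leucyl-tRNA synthetase, at a log2 fold change of -0.46 (standard error 0.17, adjusted p 0.837 in limma). Of the 5 subunits of the complex that anchors mTORC1 to the lysosome, Lamtor3 and Lamtor1 were lower in 4 of 4 pairs (background 13.4%), Lamtor5 in 3 and Lamtor2 and Lamtor4 in 2, and none was called without the block, while Lamtor3 was called with it. Wdr59, Wdr24 and Rragb of the same list were higher in 4 of 4 pairs (background 6.69%). No sensing gene was called without treated mouse 2 or control mouse 2, and 2 were without treated mouse 1.

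**Figure D5:**
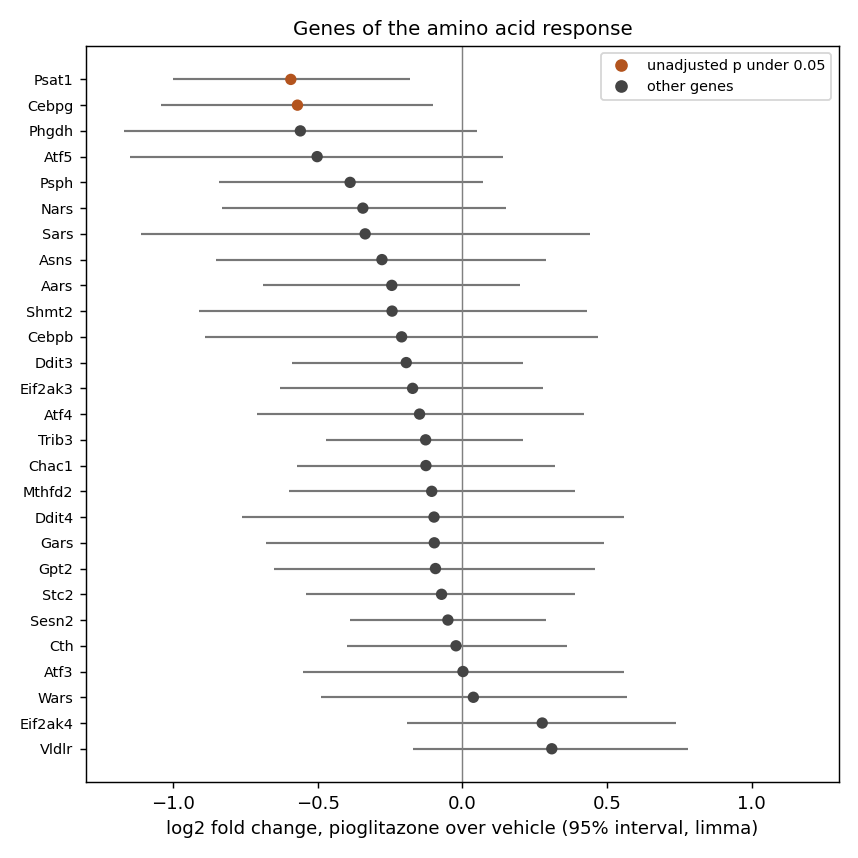
Log2 fold changes of pioglitazone-treated over vehicle-treated mice (horizontal axis) for the 27 tested genes of the amino acid response, with 95% intervals from limma. Psat1 at -0.59 and Cebpg at -0.57 are called at unadjusted p under 0.05, and most of the other values lie below 0 with intervals that hold 0.

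Amino acid and peptide carriers outside the 7 symbol families had 5 positive and 13 negative log2 fold changes among 18 tested, with a median of -0.20 and 1 called (5.56%, background 4.85%). With 1 mouse left out 0 to 3 were called, 0 without treated mouse 4 and 3 without treated mouse 1. The 1 called with all mice was Slc66a1, which exports cationic amino acids from the lysosome, with 0.637, 0.542, 0.636 and 0.502 relative intensity units in treated and 0.729, 0.813, 0.854 and 0.697 in control mice. All its treated mice were below all its control mice (background 3.04%, log2 fold change -0.42, standard error 0.145, 2-sided exact permutation p = 0.0286). With the pair as a block 3 were called, all lower (background 5.33%), and those added were Slc25a15, the ornithine carrier of mitochondria (-0.65), and the peptide carrier Slc15a2 (-0.50). Slc25a2, a second ornithine carrier, was at -0.57 (standard error 0.34). Both ornithine carriers lay near the limit, with Slc25a15 under 0.2 in 2 treated mice and Slc25a2 in 1. With all values under 0.2 raised to 0.2 the log2 fold changes of Slc25a15 and Slc25a2 were -0.325 and -0.293, neither called without the block. Cltrn, the membrane partner of kidney Slc6 carriers, averaged 0.344 and 0.314 in treated and control mice.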

How the data were processed

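The authors deposited 1 table of linear intensity values, with a column per mouse, for 4 pioglitazone-treated and 4 vehicle-treated LY mice. Per the methods the slides were scanned with GenePix, background was corrected in the CodeLink software, and each slide was normalized to its 50th percentile in GeneSpring. Medians of the deposited columns were 1.007 to 1.014. The methods also name a median normalization per gene, which was not seen in the values. A value of -9999 was read as missing (47 to 211 of 36227 probes per array).

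Every column was rescaled to a median of 1 and floored at 0.05 before log2 was taken. The linear model of limma 3.58.1 (eBayes moderation, R 4.3.3) covered 30634 probes that held 3 or more values per group and reached a mean of 0.2 in either group, and p-values were adjusted over them by the Benjamini-Hochberg method. The fit was tested on simulated data. Each gene is represented by its brightest probe that has 3 or more values per group. Names came from the platform annotation (21615 probes with a single gene, 681 with several, 13931 with none), and probes of several genes were left out. Single genes were also tested by 2-sided exact permutation over 70 assignments. Replicates are separate mice. Where all mice of a group were under 0.2, a fold is a bound against 0.2. No level of a probe was set against that of another.

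Arrays with the same replicate number correlated at 0.515, 0.181, 0.274 and 0.232 after removal of group means, all above 0.1. The number, taken from the sample titles, which state no pairing, was used as a pair in a second fit. Differently numbered arrays correlated at -0.528 to 0.369, the highest being pioglitazone mouse 3 with vehicle mouse 2. Also above 0.1 were pioglitazone mouse 4 with vehicle mouse 1 (0.157) and pioglitazone mouse 2 with vehicle mouse 4 (0.11). The members, gene lists, tests and alternatives were chosen with earlier results of these data known. Named genes are Slc6a15, genes called, genes whose groups lay apart, those with the smallest p in each role or list, and carriers with a known part in the ovary or in the main exchange systems. Further genes are described by ranges, and the further probes of Slc7a13, Slc38a6 and Slc43a2 were named after their values were seen. Alternatives were other normalizations, floors, filters, tests, probe choices, the pair as a block, and each mouse left out.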

Additional observations from a re-analysis of the deposited data

Results flagged for a closer look

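In 90 groups of 4 values examined, 5 held a mouse far from the other 3 of its group, and chance gives about 1 in 20. Slc3a2 was at 3.52 relative intensity units in pioglitazone mouse 1, against 14.8 to 17.1 in the other treated mice. Slc38a3 was at 1.09 in pioglitazone mouse 3, against 2.02 to 2.15 in the other treated mice. Among vehicle-treated mice, Slc1a3 was at 2.12 in mouse 4, against 1.80 to 1.84, and Slc7a14 at 1.5 in mouse 3, against 1.15 to 1.18. The second Slc7a13 probe was at 0.176 in vehicle mouse 1, against 0.215 to 0.222 in the other control mice.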

How the results depend on the processing

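Slc6a15 kept its direction and its call in every alternative run (log2 fold changes from 0.70 to 0.93), with 0 genes at an adjusted p of 0.05 in each. The number of transporter genes called (1) was 2 with array weights, without a filter on dim probes and with quantile normalization, 4 under the methods' own test, and 5 with the replicate block. Called higher (1) were 2 with array weights, the replicate block or the methods' own test. Called lower (0) were 1 without a filter on dim probes, 1 with quantile normalization, 2 under the methods' own test and 3 with the replicate block. With 1 mouse left out these counts ran from 1 to 3, 1 to 2 and 0 to 2. All named genes called numbered 779, and 1289 with the replicate block, which pairs the arrays, and 341 (without pioglitazone mouse 4) to 1227 (without pioglitazone mouse 1) with 1 mouse left out, 516 without vehicle mouse 1. The amino acid response list had 1 called with array weights and 1 to 5 with 1 mouse left out. The sensing list had 0 with the mean over all probes, 2 with the replicate block and 0 to 2 with 1 mouse left out. The carriers of other families had 2 with array weights or quantile normalization, 3 with the replicate block and 0 to 3 with 1 mouse left out.

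Signs changed for genes that were not called. With array weights the log2 fold changes were -0.034 for Slc1a1, -0.003 for Slc1a3, 0.075 for Slc36a2, 0.052 for Slc38a1, -0.19 for Slc38a3, 0.012 for Slc43a3, 0.094 for Slc6a6 and -0.145 for Slc7a11. With the mean over all probes they were 0.007 for Slc38a2 and 0.072 for Phgdh. With 1 mouse left out the ranges crossed 0 for Slc1a3 (-0.026 to 0.064), Slc1a5 (-0.19 to 0.45), Slc36a2 (-0.173 to 0.028), Slc38a1 (-0.10 to 0.008), Slc38a3 (-0.047 to 0.331), Slc3a2 (-0.717 to 0.043) and Slc7a11 (-0.28 to 0.38). The calls of Cebpg and Lars were lost in 4 alternatives each and that of Slc66a1 without pioglitazone mouse 4. The cause was not tested. With 4 arrays per group the number of arrays limits the precision, and values near 0.2 are the least certain.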
